A study of Arabidopsis thaliana with 28 samples.

Results

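TIL (AT5G58070, temperature-induced lipocalin) of Arabidopsis thaliana is 1 gene, read by 1 probe set, 247851_at, among 22810 probe sets on an Affymetrix expression array. It was found by its symbol in the platform's probe-to-gene table, and it is 1 of 14578 features tested, of which 7898 are named genes and 6680 are probe sets with several genes or none. The arrays came from the aerial parts of Ws-2 seedlings, in 7 groups of 4 samples. The cold groups were CBF2Δc plants, which overexpress a shortened CBF2, and wild-type plants. Both were grown for 11 d at 22 °C, like the warm groups. They were then held for 24 h at 4 °C in continuous light near 35 µmol photons per square metre per second. The warm groups were plants overexpressing CBF1 (CBF1OX), CBF2 (CBF2OX) or CBF3 (CBF3OX), CBF2Δc plants and wild-type plants, all grown on agar plates for 11 d at 22 °C in continuous light near 100 µmol photons per square metre per second. Cold, dimmer light and the added time cannot be told apart in this design. Each construct was carried by 2 lines of 2 samples each, namely CBF1OX by lines G5 and G39, CBF2OX by lines E2 and E24, CBF3OX by lines A28 and A30, and CBF2Δc by lines DN89 and DN96. Neither the promoter of the constructs nor the pooling of plants is given in the sources used here, so p-values cover the spread between these samples, which the labels call biological replicates.

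Lipocalins are small proteins folded into a barrel that holds a lipid or another greasy ligand. TIL lies at the plasma membrane of plant cells, and Arabidopsis plants that lack it are known to tolerate heat, freezing and oxidative stress less well. The CBF proteins switch on many genes during cold acclimation by binding the CRT/DRE element in their promoters.

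TIL transcript was clearly detected in every sample, above a log2 value of 4 on all 28 arrays, and cold gave its highest levels. Levels below are log2 expression values, so a difference of 1 is a 2-fold change. In cold CBF2Δc plants TIL stood at 11.78 and 11.88 in line DN89 and at 11.84 and 11.38 in line DN96. In cold wild-type plants it stood at 11.13, 11.05, 11.40 and 11.45. These 8 cold samples lay above all 20 warm samples.

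Among warm plants the overexpressors came next. TIL measured 9.14 and 8.77 in line G5 and 9.43 and 9.73 in line G39 of CBF1OX. It measured 10.01 and 9.71 in line E2 and 9.41 and 9.46 in line E24 of CBF2OX. It measured 9.63 and 9.33 in line A28 and 9.35 and 9.37 in line A30 of CBF3OX. These 3 groups overlapped one another, and each lay above all 4 warm wild-type samples.

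The lowest levels belonged to warm CBF2Δc and warm wild-type plants. Warm CBF2Δc plants had 8.73 and 8.83 in line DN89 and 8.53 and 8.66 in line DN96. Warm wild-type plants had 8.45, 8.51, 8.68 and 8.65. The 2 groups overlapped, and the sample of CBF1OX at 8.77 lay within the range of warm CBF2Δc plants.

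**Figure D1:**
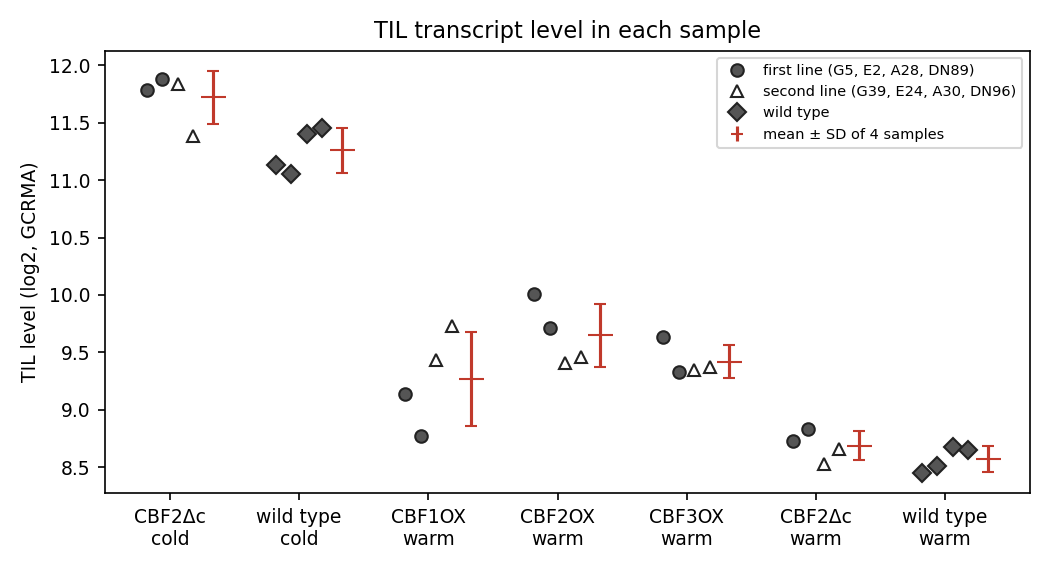
TIL level (log2 GCRMA value, vertical axis) in each of the 28 samples by group. Circles and triangles mark the first and second line of a construct, diamonds the wild type, and the bars the mean ± SD of 4 samples. Cold groups average 11.72 and 11.26, the 3 overexpressors lie between 8.77 and 10.01, and warm CBF2Δc and wild-type plants lie between 8.45 and 8.83.

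From high to low, the group means were 11.72 ± 0.23 in cold CBF2Δc plants, 11.26 ± 0.20 in cold wild-type plants, 9.65 ± 0.28 in CBF2OX, 9.42 ± 0.14 in CBF3OX, 9.27 ± 0.41 in CBF1OX, 8.69 ± 0.13 in warm CBF2Δc plants and 8.57 ± 0.11 in warm wild-type plants (SD, n = 4 each). Of the 6 steps between neighbours in this order, the step between cold wild-type plants and CBF2OX was the one that met both limits used for a call. A change was called, and is described as a rise or a fall, when the adjusted p of the fit over all features was below 0.05 and the change was at least 2-fold. The step between CBF1OX and warm CBF2Δc plants had an adjusted p of 0.0284 and a size of 0.58, and the groups overlapped through the CBF1OX sample at 8.77. This step was 0.18 with the first lines alone (adjusted p = 0.965) and 0.99 with the second lines alone, and its adjusted p was 0.149 when only the compared groups were fitted. The other 4 steps had adjusted p-values of 0.0939 or more.

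Cold raised TIL in the wild type. The mean was 11.26 in cold plants and 8.57 in warm plants, a difference of 2.69 ± 0.16 (SE of the fit), which is 6.43-fold (95% interval 5.10 to 8.11, adjusted p = 1.1e-12). The lowest cold sample lay 2.37 above the highest warm one. In this comparison 8.74% of all features were called higher in the cold, 1274 in number, and TIL ranked 128 among all 14578 features and 67 among the 7898 named genes. The median change of the 1274 features was 1.49, against a 99th percentile of 2.59 over all features, so TIL lay beyond that percentile.

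The rise in cold was also present in CBF2Δc plants. The mean was 11.72 in cold CBF2Δc plants and 8.69 in warm ones, a difference of 3.03 ± 0.16 or 8.18-fold (6.49 to 10.3, adjusted p = 1.28e-13), in a comparison where 9.08% of features were called higher. Line DN89 rose by 3.05 ± 0.18 and line DN96 by 3.02 ± 0.18, with adjusted p-values of 1.8e-11 and 2.13e-11. Whether the rise differed between CBF2Δc and wild-type plants was tested directly, and the difference was 0.35 ± 0.23 (95% interval −0.13 to 0.82, adjusted p = 0.701). This interval includes 0 and also a larger rise in CBF2Δc plants of up to 0.82. Across all features, 0.0274% were called for such a difference.

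In warm plants the full-length CBFs were compared with the wild type. TIL rose in CBF2OX, where the mean was 9.65 against 8.57 in warm wild-type plants, a difference of 1.08 ± 0.16 or 2.11-fold (1.67 to 2.66, adjusted p = 0.000118). Of all features, 1.71% were called higher in CBF2OX. The lowest CBF2OX sample lay 0.73 above the highest wild-type sample. Without CBF2OX replicate 1, the sample at 10.01, the difference was 0.95 and missed the 2-fold limit.

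TIL was also higher in the other overexpressors, by less than 2-fold. In CBF3OX the difference was 0.85 ± 0.16 or 1.80-fold (1.43 to 2.27, adjusted p = 0.00155), and in CBF1OX it was 0.70 ± 0.16 or 1.62-fold (1.28 to 2.04, adjusted p = 0.0121). By adjusted p alone 3.92% of features were higher in CBF3OX and 3.62% in CBF1OX, while 1.94% and 1.8% also reached 2-fold. The samples did not overlap with warm wild type in either group, with a gap of 0.65 for CBF3OX and 0.09 for CBF1OX. The CBF1OX difference had an adjusted p of 0.131 when only CBF1OX and warm wild-type samples were fitted, and of 0.069 and 0.0947 without replicate 3 or 4, both of line G39.

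The 3 overexpressors share the warm wild-type samples as their control, so their differences are given side by side. TIL ranked 250 among the 14578 features in CBF2OX, 384 in CBF3OX and 532 in CBF1OX, which left 1.71%, 2.63% and 3.64% of features with a higher change. The 95th percentile of all changes was 0.51 in CBF2OX, 0.56 in CBF3OX and 0.56 in CBF1OX, and TIL lay above it each time. The 99th percentiles were 1.45, 1.48 and 1.41, and TIL lay below them. Among the 1274 features called higher in cold wild-type plants, TIL ranked 171 in CBF2OX, 225 in CBF3OX and 274 in CBF1OX, where the median changes of these features were 0.15, 0.22 and 0.22. These features were chosen against the same warm wild-type samples, which favours higher changes in the overexpressors, so the ranks and medians are a description.

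**Figure D2:**
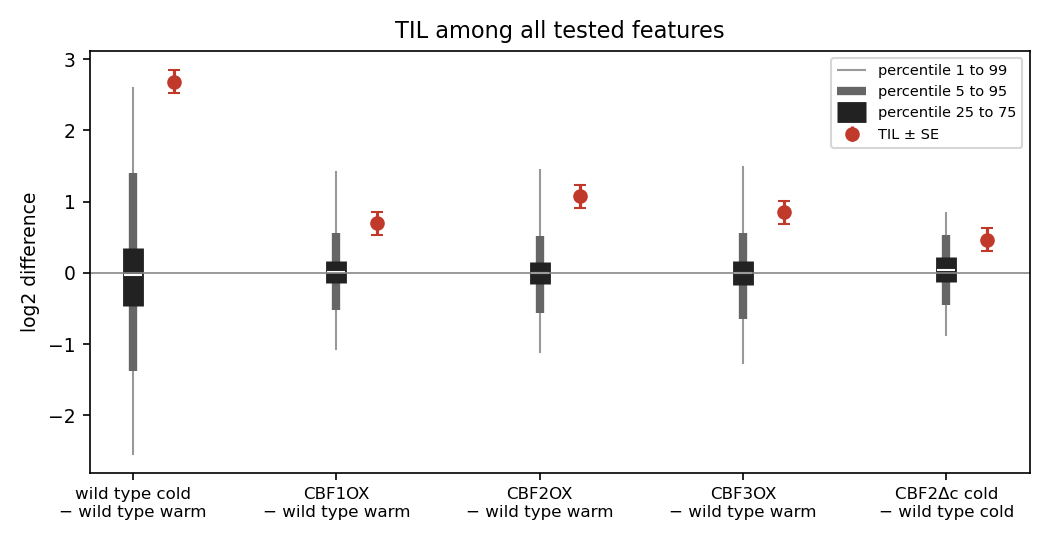
Difference in TIL level (log2, vertical axis; point with SE) beside the spread of all 14578 features for 5 comparisons, drawn as percentiles 1 to 99, 5 to 95 and 25 to 75. TIL lies above percentile 99 for cold in the wild type, and between percentiles 95 and 99 for the 3 overexpressors. In cold CBF2Δc plants against cold wild type it lies at 0.46, below percentile 95 at 0.53.

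The warm overexpressors did not reach the TIL level of cold wild-type plants. Cold wild type exceeded CBF1OX by 1.99 ± 0.16 (3.97-fold, adjusted p = 3.01e-10), CBF3OX by 1.84 ± 0.16 (3.57-fold, adjusted p = 1.2e-09) and CBF2OX by 1.61 ± 0.16 (3.05-fold, adjusted p = 9.98e-09). Gaps between the groups were 1.32, 1.42 and 1.04. In these comparisons 7.25%, 7.57% and 7.83% of features were called higher in cold wild type.

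The overexpressors themselves were compared in 3 pairs. CBF1OX minus CBF2OX was −0.38 (95% interval −0.71 to −0.05, adjusted p = 0.737), CBF1OX minus CBF3OX was −0.15 (−0.49 to 0.18, adjusted p = 0.971), and CBF2OX minus CBF3OX was 0.23 (−0.11 to 0.56, adjusted p = 0.92). No pair passed the test, the samples of every pair overlapped, and the intervals allow differences of up to 0.71 in size. Few features were called between these groups, 0.0343%, 0.0206% and 0.0206% of all. The direction depended on the lines, since with the second lines alone CBF1OX minus CBF2OX was 0.15 and CBF1OX minus CBF3OX was 0.22. With the first lines alone CBF1OX minus CBF2OX was −0.91 (adjusted p = 0.0055). Without CBF1OX replicate 2, at 8.77, CBF1OX minus CBF2OX was −0.21, and without CBF2OX replicate 1, at 10.01, CBF2OX minus CBF3OX was 0.11.

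The shortened CBF2 gave no such difference in warm plants. Warm CBF2Δc plants differed from warm wild type by 0.12 ± 0.16 (95% interval −0.22 to 0.45, adjusted p = 1), where 0.0206% of features were called. CBF2OX exceeded warm CBF2Δc plants by 0.96 ± 0.16 (adjusted p = 0.000468), with a gap of 0.58 between the samples and a size of 1.95-fold, just below the limit of 2-fold. By adjusted p alone 2.81% of features were higher in CBF2OX than in warm CBF2Δc plants. CBF1OX exceeded warm CBF2Δc plants by 0.58 ± 0.16, in a comparison added after the data were seen, where 3.92% of features were higher by adjusted p alone. The difference between CBF2OX and warm CBF2Δc plants passed 2-fold with line E2 set against DN89 (1.08), and without CBF2OX replicate 3 or 4 or warm CBF2Δc replicate 2 (up to 1.04).

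In the cold, CBF2Δc plants averaged 11.72 and wild-type plants 11.26. The difference of 0.46 ± 0.16 (95% interval 0.13 to 0.80) had an unadjusted p of 0.00873 in the limma fit and an adjusted p of 0.0939, so it did not pass. The groups overlapped by 0.07, through the DN96 sample at 11.38. By adjusted p alone 4.03% of features were higher in cold CBF2Δc plants, and 7.11% of features had a change above that of TIL. Without that DN96 sample, left out because of its value, the difference was 0.58 with an adjusted p of 0.0433. Leaving out any other single sample of the 2 groups gave adjusted p-values of 0.0867 to 0.236 in the limma fit. With line means in place of the CBF2Δc samples the adjusted p was 0.217.

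An exact two-sided permutation test on the 4 against 4 values gave 0.0286, the smallest p that 70 splits allow, for 9 of 15 comparisons. These were cold against warm in both genotypes, the 3 overexpressors against warm wild type, cold wild type against the 3 overexpressors, and CBF2OX against warm CBF2Δc plants. Adjusted over the 15 comparisons this was 0.0476. Cold and warm CBF2Δc samples of 1 number share a line and were taken as pairs, though pairing within a line was not shown. The exact sign-flip test of these 4 pairs gave 0.125, the smallest it allows. With that value in place of the unpaired one, the adjusted p of the other 8 was 0.0536. The exact p was 0.0857 for CBF2Δc against wild type in the cold and 0.2 in the warm. The tests of 4 against 4 treat the samples of a construct as exchangeable, though they come from 2 lines of 2 samples. They therefore cover the spread between samples and not that between lines. With line means as samples, the adjusted p of the limma fit against warm wild type was 0.0682 for CBF1OX, 0.00484 for CBF2OX and 0.0194 for CBF3OX. Wild-type samples stayed single in that fit. Its pooled spread mixes differences between 2 lines per construct with differences between wild-type samples. These p-values therefore do not measure the spread between lines alone.

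**Figure D3:**
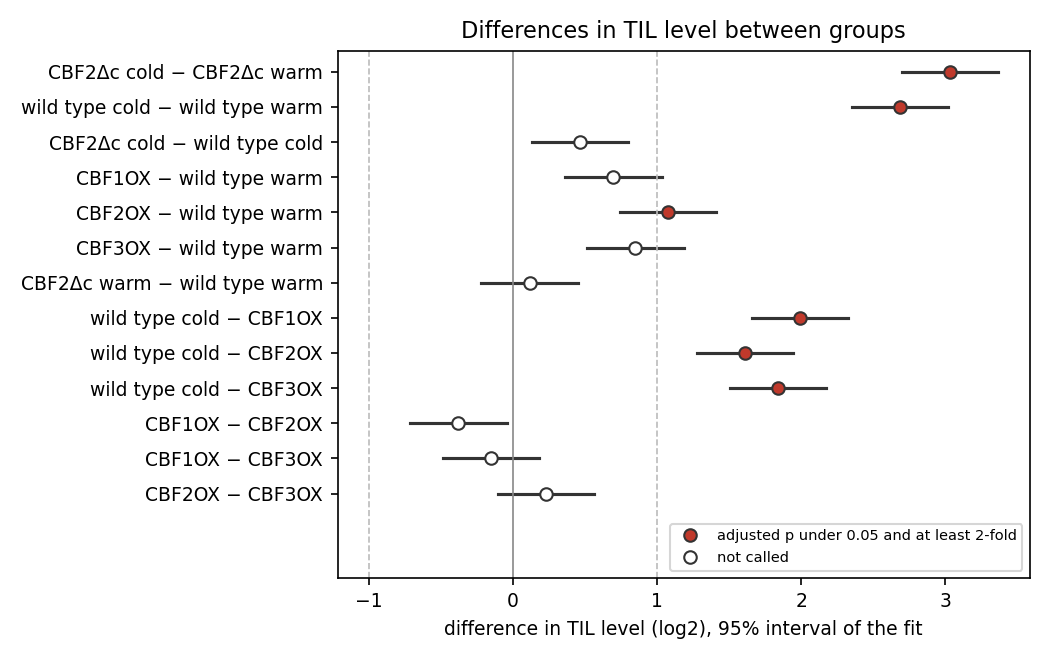
Difference in TIL level (log2, horizontal axis) with its 95% interval for 13 comparisons, first-named group minus the other. Filled points passed an adjusted p of 0.05 and a 2-fold change, and dashed lines mark 2-fold. Both cold responses lie near 3, cold wild type exceeds each overexpressor by 1.61 to 1.99, and CBF2OX is the filled point among the overexpressors against warm wild type.

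The lines of a construct were then compared in a fit with a mean for each line and temperature. In CBF1OX the mean was 8.96 in G5 and 9.58 in G39, a difference of −0.63 ± 0.18 (95% interval −0.999 to −0.25, adjusted p = 0.0244), and 11.6% of features differed between these lines by adjusted p alone. Both G39 samples lay above both G5 samples. Against warm wild type, G39 was higher by 1.01 ± 0.16 (adjusted p = 4.19e-05), which passed 2-fold, as did 8.06% of features in either direction. G5 was higher by 0.38 ± 0.16 (adjusted p = 0.461), in a comparison where 0.809% of features passed by adjusted p alone.

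The probe set 254074_at, which carries no gene name here and was chosen after its values were seen because it was high only in CBF1OX among warm groups, stood apart between these lines too. It averaged 7.35 in G5, with samples at 6.95 and 7.74, and 9.90 in G39, with samples at 9.87 and 9.92. In the other warm groups it lay between 2.19 and 2.30. With 2 lines a relation between this probe set and TIL was not tested.

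The lines of the other constructs did not differ in TIL by adjusted p. In CBF2OX the difference of E2 minus E24 was 0.43 ± 0.18 (adjusted p = 0.195), where 5.48% of features passed. E2 was higher than warm wild type by 1.29 ± 0.16 (adjusted p = 2.89e-06), a call shared by 5.17% of features, and E24 by 0.86 ± 0.16 (adjusted p = 0.000906), just below 2-fold, where 6.01% passed by adjusted p alone. The call in CBF2OX therefore met the 2-fold limit in E2 and not in E24.

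In CBF3OX the lines were close, with 9.48 in A28 and 9.36 in A30, a difference of 0.12 ± 0.18 (adjusted p = 1). A28 exceeded warm wild type by 0.91 ± 0.16 (adjusted p = 0.000283, with 11.2% of features passing) and A30 by 0.79 ± 0.16 (adjusted p = 0.00158, with 9.09% passing). In CBF2Δc the difference of DN89 minus DN96 was 0.22 ± 0.18 in the cold (adjusted p = 0.62) and 0.19 ± 0.18 in the warm (adjusted p = 0.848). Against cold wild type DN89 was higher by 0.57 ± 0.16 (adjusted p = 0.0435, with 3.66% passing) and DN96 by 0.35 ± 0.16 (adjusted p = 0.17).

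**Figure D4:**
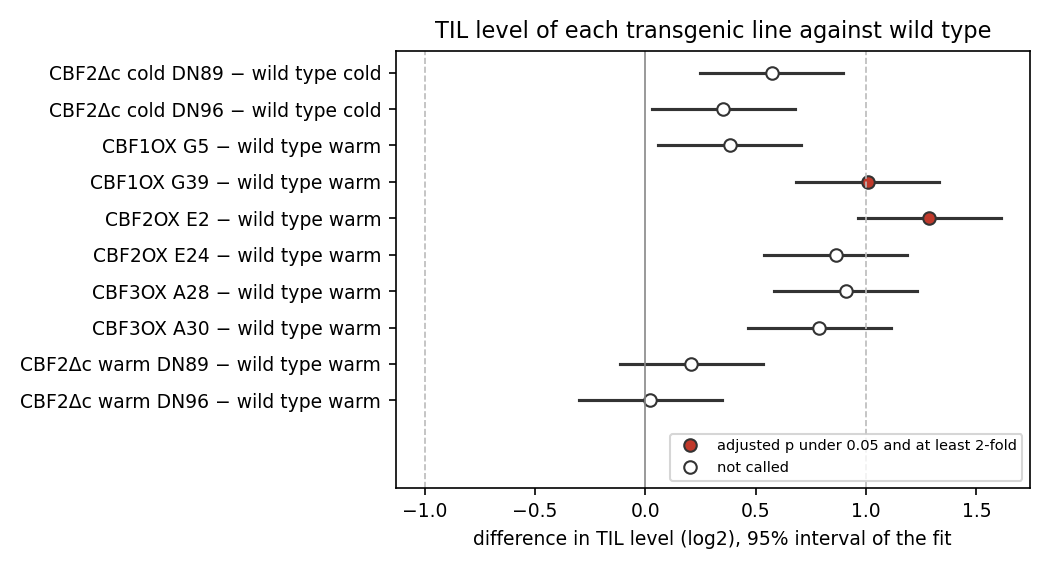
Difference in TIL level (log2, horizontal axis) between each transgenic line and the wild type at the same temperature, with its 95% interval. Filled points passed an adjusted p of 0.05 and a 2-fold change. Lines G39 (1.01) and E2 (1.29) passed both limits, and G5 (0.38) is the lowest of the 6 lines that overexpress a full-length CBF.

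The lipocalins, and genes with neighbouring roles at membranes and against oxidative damage, were read from lists of which the probe-to-gene table named few members. Of 4 lipocalin-fold genes, TIL and CHL were measured. CHL (AT3G47860) encodes the chloroplast lipocalin, which protects thylakoid lipids under stress. It averaged 10.03 in cold CBF2Δc, 9.72 in cold wild-type, 9.42 in CBF1OX, 9.59 in CBF2OX, 9.38 in CBF3OX, 9.93 in warm CBF2Δc and 9.92 in warm wild-type plants.

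CHL was not called in any of these comparisons. The difference between cold and warm wild type was −0.21 ± 0.21 (adjusted p = 0.432), and the overexpressors differed from warm wild type by −0.54 to −0.34 with adjusted p-values of 0.112 or more. In cold CBF2Δc plants against cold wild type the difference was 0.32 ± 0.21 (adjusted p = 0.414). The spread of CHL was wider than that of TIL in CBF3OX, with samples between 8.82 and 10.01. With 2 lipocalins measured, one of them TIL itself, nothing is read for lipocalins as a group.

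Of 11 listed plasma membrane proteins of cold acclimation, 2 were measured, the dehydrins COR47 and LTI30, which bind membranes and protect them from dehydration. Both rose in the cold, where 8.74% of all features were called higher, and in CBF1OX (1.8%), CBF2OX (1.71%) and CBF3OX (1.94%). Neither was called between CBF2Δc and wild-type plants, where 0.0206% of features were called in the warm and 0.837% in the cold. LTI30 differed by −1.345 ± 0.40 in warm CBF2Δc plants (adjusted p = 0.498) and by −0.63 ± 0.40 in cold ones (adjusted p = 0.398). COR47 differed by −0.535 ± 0.26 (adjusted p = 0.816) and −0.435 ± 0.26 (adjusted p = 0.356). TIL differed in the other direction, by 0.12 and 0.46, and was not called either. COR47 had a mean level of 13.46 in cold wild-type, 12.72 in CBF1OX, 13.14 in CBF2OX, 13.00 in CBF3OX and 10.82 in warm wild-type plants. LTI30 averaged 13.50, 12.35, 13.13, 12.92 and 8.15 in the same groups.

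COR47 and TIL rose by similar amounts in the cold, 2.64 ± 0.26 for COR47 and 2.69 ± 0.16 for TIL. In CBF2OX and CBF3OX, COR47 lay within 0.33 ± 0.26 (adjusted p = 0.307) and 0.46 ± 0.26 (adjusted p = 0.142) of cold wild type. TIL lay 1.61 and 1.84 below cold wild type in those groups. In CBF1OX, cold wild type exceeded the overexpressor by 0.75 ± 0.26 for COR47 (adjusted p = 0.0189), by 1.15 ± 0.40 for LTI30 (adjusted p = 0.0205) and by 1.99 ± 0.16 for TIL. The difference between genes in these shortfalls was not tested, and a level was compared only within a probe set.

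Of 32 listed genes of antioxidant and lipid peroxide defence, 4 were measured. In cold wild-type plants 2 of the 4, GR1 and SAPX, were called higher, against 8.74% of all features, and the 4 genes did not all move one way. Their median change was 0.69, against −0.04 over all features. The SAPX change of 1.002 was at the limit of 2-fold, and cold wild-type replicate 1 (8.60) lay above the other 3 (8.12 to 8.17). None of the 4 genes was called in CBF1OX, CBF2OX or CBF3OX. GR1, which encodes a glutathione reductase, averaged 10.70 in cold wild-type, 9.59 in CBF1OX, 9.35 in CBF2OX, 9.45 in CBF3OX and 8.95 in warm wild-type plants. It rose by 1.76 ± 0.18 in the cold (adjusted p = 1.03e-08).

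The difference of GR1 from warm wild type was 0.65 ± 0.18 in CBF1OX (adjusted p = 0.0325), and it was 0.40 (adjusted p = 0.226) in CBF2OX and 0.50 (adjusted p = 0.0834) in CBF3OX. SAPX, an ascorbate peroxidase of chloroplasts and mitochondria, averaged 8.26 in cold and 7.26 in warm wild-type plants, a rise at the limit of 2-fold (adjusted p = 0.00184), and differed by −0.41 to −0.18 in the overexpressors. TAPX, the thylakoid ascorbate peroxidase, differed by −0.92 ± 0.19 in the cold (adjusted p = 0.000242), short of 2-fold. GR, another glutathione reductase, differed by 0.38 ± 0.11 in the cold (adjusted p = 0.0067) and, against warm wild type, by 0.52 in CBF2OX (adjusted p = 0.00549), by 0.45 in CBF1OX (adjusted p = 0.0181) and by 0.26 in CBF3OX (adjusted p = 0.163). Of 17 listed heat and thermotolerance genes, HSA32 alone was named. Its group means lay between 3.28 and 3.61, below the detection limit of 4, and 1 group, cold CBF2Δc plants, had a highest value of 4.03. It was not tested, since it was above 4 in too few arrays.

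Of the neighbours of TIL on chromosome 5, YKT61 was tested and was not called where TIL was called. In the TAIR10.1 assembly the span of YKT61 (AT5G58060), which encodes a SNARE protein of membrane fusion, overlaps that of TIL. Its own probe set, 247852_at, lay between 8.43 and 9.28 over all 28 samples. It differed by −0.16 ± 0.15 between cold and warm wild type (adjusted p = 0.417), and from warm wild type by −0.13 to −0.32 in the 3 overexpressors, with adjusted p-values of 0.271 or more. RR18 (AT5G58080), a response regulator of cytokinin signalling on the other side, lay between 2.23 and 2.37, below the detection limit, and was not tested.

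The genes most like TIL were taken as the 8 named genes with the highest Pearson correlation with TIL over the 28 samples, among 7896 named genes. They were AT1G01500 (0.98), AT2G16890 (0.97), AT1G67360 (0.97), AT5G20180 (0.97), AT4G02880 (0.97), AT5G55180 (0.97), AT1G69250 (0.96) and AtRZ-1c (0.96), an RNA-binding protein with a zinc finger. The correlation is a description, since the 28 samples share 7 groups and the 8 cold samples set much of the range. Over all named genes the median correlation was −0.08 and the 95th percentile 0.87, and 228 genes lay above 0.9 and 23 above 0.95.

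All 8 genes rose in cold wild-type plants, by 1.42 (AT5G20180) to 3.42 (AT2G16890), in a comparison where 8.74% of features were called higher. Their choice by likeness to TIL over samples that include the cold ones favours such a rise, so it is a description. In the overexpressors AT2G16890 rose in CBF2OX (1.18) and CBF3OX (1.24) and AT5G55180 rose in CBF1OX (1.08), while the other 6 were not called in any overexpressor. AtRZ-1c differed by 0.27 to 0.30 in the overexpressors and rose by 1.57 in the cold.

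The list of similar genes depended on the measure. Of the 8 genes, 2 stayed among the first 8 by Spearman's rank correlation, 2 by the 7 group means, and none within the 20 warm samples. Within the warm samples the correlations of the 8 genes with TIL were 0.68 (AtRZ-1c) to 0.92 (AT2G16890). The warm samples put AT5G27930 first (0.96), which ranked 1404 over all 28 samples, and included SERPIN1, which encodes a protease inhibitor (0.94, rank 1108 over all samples). At the other end over 28 samples stood AT5G52780 (−0.97), AT5G27950 (−0.96) and AT4G27450 (−0.96), which fell in the cold, with changes of −3.54, −1.99 and −4.94.

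**Figure D5:**
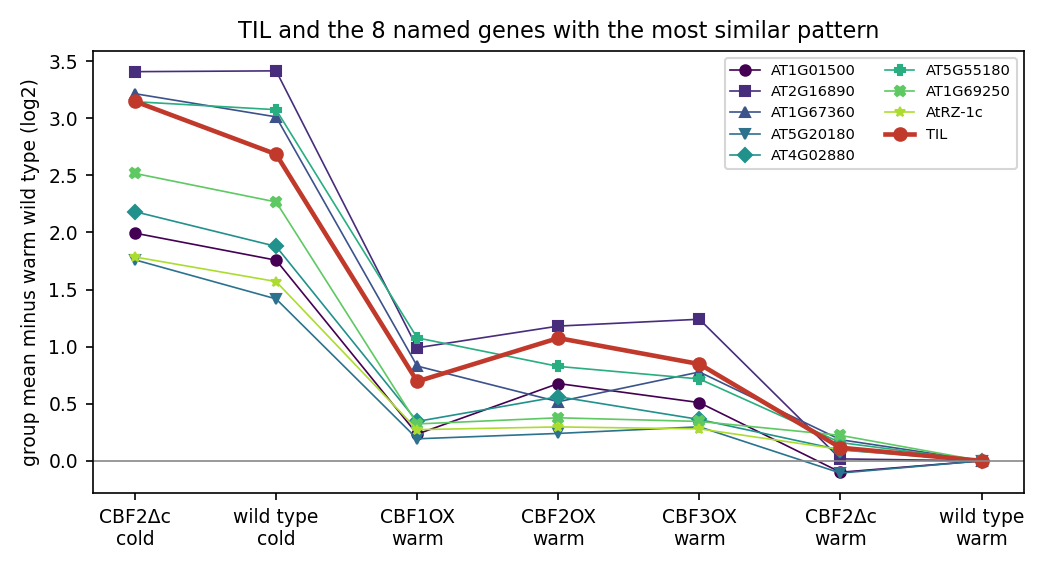
Group mean minus the mean of warm wild type (log2, vertical axis) for TIL and the 8 named genes with the highest correlation with it over 28 samples, in the 7 groups. All 9 genes are high in both cold groups, and in the overexpressors AT2G16890 (0.99 to 1.24) and AT5G55180 (0.72 to 1.08) were called in at least 1 overexpressor, beside TIL (0.70 to 1.08).

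Facts of the whole data set bear on these values as follows. Array medians lay between 4.98 and 5.08, samples of a group had a mean correlation between 0.965 and 0.987, and no comparison shifted the median of all features by more than 0.05 in size. The green-tissue markers RCA and LHCB4.2, 2 of 6 listed, were high, with RCA at 13.08 to 13.66 in group means. LHCB4.2, an antenna protein of photosystem II, fell by 1.85 ± 0.32 in cold wild type, and the mean level of these markers was 10.74 to 11.37 in cold wild-type samples and 11.98 to 12.41 in warm ones.

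Of 5 listed root markers, 3 were measured. PYK10, a beta-glucosidase of ER bodies, stood at 10.79 to 11.84 in group means, and ER bodies are also known in the shoots of seedlings, so its level alone does not show root tissue, while the root-hair expansins EXPA7 and EXPA18 stood at 3.18 to 4.31 and 3.45 to 4.50, about the detection limit. The mean level of the 3 was 5.56 to 6.06 in cold CBF2Δc, 6.10 to 6.60 in cold wild-type, 6.28 to 7.02 in CBF1OX, 6.14 to 6.56 in CBF2OX, 6.17 to 6.26 in CBF3OX, 6.03 to 6.98 in warm CBF2Δc and 6.58 to 7.14 in warm wild-type samples. The samples of this mean lay below all warm wild-type samples in CBF2OX and CBF3OX, and below all cold wild-type samples in cold CBF2Δc plants, and overlapped in CBF1OX and in cold against warm wild type. By single marker, EXPA18 was called lower in CBF3OX than in warm wild type (−1.002, adjusted p = 0.00146 in the limma fit). PYK10 was called lower in cold than in warm CBF2Δc plants (−1.028, adjusted p = 0.00205). No root marker was called higher in these 2 comparisons. The part of tissue make-up in the TIL differences was not tested. In whole aerial parts, more cells that express TIL and more TIL transcript per cell cannot be told apart.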

How the data were processed

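Each probe set has a deposited log2 value, and the submitters' processing notes name GCRMA and limma as the tools of the authors, without versions. The log base was read from the range of 2.16 to 14.53. GCRMA removes background by probe sequence, so dim probe sets pile up at a floor, which TIL did not approach. Of 22810 probe sets, 64 were controls, 13513 had 1 gene, 503 several and 8730 none. For genes with several probe sets the brightest was kept. Features above 4 in at least 4 arrays were tested (14578). A single limma model (R 4.3.3, limma 3.58.1, statmod 1.5.0) with 7 group means was fitted to 28 samples, with Benjamini-Hochberg adjustment over all features, and a model with 12 means was fitted for lines. Calls needed an adjusted p below 0.05 and 2-fold. Figures were drawn in matplotlib 3.10.9 (Python 3.11.15, pandas 2.3.3, numpy 2.4.6). The fit was tested on simulated data. The precision is limited by the number of arrays. At most 25.2% of values were identical between any pair of arrays, so none was treated as a duplicate.

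TIL, the gene lists and the rule for named genes were chosen with earlier results of these data known. That rule named TIL, the 8 most and 3 least correlated genes, the nearest annotated gene on each side, every measured lipocalin, and from the other lists up to 4 called members per direction; TAPX and GR were named after their values were seen, as was HSA32. Alternatives were other filters, normalizations, variance models, blocks, line subsets, line means, exact tests and leaving out each sample. Same-numbered cold and warm CBF2Δc samples come from the same line, and their deviations correlated at 0.152 to 0.283. A shared line can give such a correlation, so it does not show that the numbers pair samples within a line. Same-numbered samples that share no line correlated at −0.0425 to 0.38 between CBF2OX and CBF3OX, and at −0.241 to −0.192 between CBF1OX and CBF2OX. Taking the CBF2Δc samples as pairs by number was therefore an assumption. Cold and warm wild-type samples correlated at −0.04 to 0.08 and were not taken as pairs. No sequences were used here.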

Additional observations from a re-analysis of the deposited data

Results flagged for a closer look

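The TIL level of 1 CBF3OX sample, replicate 1 of line A28, was 9.63 and stood apart from the other 3 samples of its group at 9.33 to 9.37. COR47 in cold wild-type replicate 2 was 13.29, below the other 3 at 13.51 to 13.53. SAPX in cold wild-type replicate 1 was 8.60, above the other 3 at 8.12 to 8.17. TAPX in CBF2OX replicate 3, of line E24, was 9.06, below the other 3 at 9.53 to 9.59. These 4 were found among 63 groups of 4 samples over 9 genes, by the gap to the nearest sample over the range of the group, and chance gives about 5% of groups. The TIL change against warm wild type differed between the lines of CBF1OX, with line G5 minus line G39 at −0.63 ± 0.18 (adjusted p = 0.0244 in the limma fit).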

How the results depend on the processing

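For 21 results on TIL, 372 alternative values were computed. The direction and the call, which needs both limits, were kept by 361 of them, and 344 of these also kept their side of the adjusted p limit. With the second line of each construct alone, CBF1OX minus warm wild type was 1.01 and passed both limits, CBF2OX minus warm wild type was 0.86 and missed 2-fold, and CBF1OX minus CBF2OX (0.15) and CBF1OX minus CBF3OX (0.22) turned positive. With the first lines alone, CBF2OX minus warm CBF2Δc plants reached 1.08 and passed 2-fold, CBF1OX minus warm wild type was 0.38 (adjusted p = 0.459), and CBF1OX minus CBF2OX was −0.91 (adjusted p = 0.0055). Leaving out 1 sample at a time gave 0.95 to 1.15 for CBF2OX minus warm wild type, where the call ended without CBF2OX replicate 1. It gave 0.84 to 1.04 for CBF2OX minus warm CBF2Δc plants, which passed 2-fold without CBF2OX replicate 3 or 4 or warm CBF2Δc replicate 2. It gave −0.31 to 0.0133 for CBF1OX minus CBF3OX, which turned positive without CBF1OX replicate 2. The adjusted p of CBF1OX against warm wild type lay above 0.05 with line means (0.0682) and without CBF1OX replicate 3 (0.069) or 4 (0.0947). CBF2Δc against wild type in the cold passed by adjusted p in 2 of 21 alternatives, with DN89 alone (0.0496) and without cold CBF2Δc replicate 4 (0.0433). CBF1OX minus warm CBF2Δc plants, a comparison added after the data were seen, ranged from 0.18 with first lines to 0.99 with second lines, and lost its adjusted p under 9 of 21 alternatives, among them line means (0.243), a line block (0.0623), the exact test (0.0571) and leaving out CBF1OX replicate 3 (0.115) or 4 (0.165) or warm CBF2Δc replicate 3 (0.0894) or 4 (0.0663). Cold wild type minus warm wild type ranged from 2.62 to 2.75, cold minus warm CBF2Δc from 2.98 to 3.15, and CBF3OX minus warm wild type from 0.78 to 0.91 over their alternatives. The exact test of 4 CBF2Δc pairs, added after the data were seen, cannot pass (3.03, p = 0.125). The replicate block, 1 shared shift per replicate number over all 28 samples and not a paired fit of CBF2Δc, changed no call. The cold rise was then 3.03 in CBF2Δc plants (adjusted p = 3.61e-12) and 2.69 in the wild type (2.34e-11). CBF2OX minus warm wild type was then 1.08 (0.00036). Called features numbered 369 in CBF1OX (41 with only the compared groups to 1169 with G39 alone), 364 in CBF2OX (226 with line means to 752 with E2 alone), 525 in CBF3OX (317 with line means to 650 with A28 alone), 122 in cold CBF2Δc against wild type (27 to 376), 3 in warm CBF2Δc (1 to 139), 363 for CBF2OX against CBF2Δc (101 to 811), 395 for CBF1OX against CBF2Δc (54 to 1208) and 4 for the interaction (0 to 65). Between overexpressors they were 5 (2 to 451), 3 (2 to 341) and 3 (2 to 135). The cause of these changes was not tested. Another TIL probe set was not tried, since 1 exists on the table.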
